A study of Homo sapiens with 2 samples.

Results

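Metallothioneins are small, cysteine-rich proteins that bind zinc and copper in the cytoplasm, and 8 of their genes (MT1A, MT1E, MT1F, MT1G, MT1H, MT1M, MT1X and MT2A) were followed here together with the zinc exporter gene SLC30A1 and the zinc-sensing transcription factor gene MTF1. These 10 genes of the 60671 genes in the count table were chosen by name, as genes of the metal response. Earlier results of these data were known when they were chosen. C4-2B, an established human castration-resistant prostate cancer (CRPC) line, received either vehicle or the ACK1 tyrosine kinase inhibitor (R)-9b, and poly-A RNA of each condition was sequenced as 1 library. The labels give 1 µM (R)-9b overnight for the treated cells and the same serum-supplemented medium for both conditions, and do not name the solvent of the vehicle. Of the 7 metallothioneins with enough counts to compare, 4 were called lower past 2-fold in (R)-9b and 6 were lower beyond counting error. Among all genes with enough counts, these shares were 3.44% and 31.1%. SLC30A1 and MTF1 moved little. The summed counts of the 8 metallothioneins were 32653 in vehicle and 8255 in (R)-9b, a 3.35-fold lower level after scaling.

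In textbook accounts, free zinc binds MTF1, which enters the nucleus and binds metal response elements in the promoters of the metallothionein genes and of SLC30A1. The metallothioneins then hold zinc in clusters of cysteine side chains, and SLC30A1, a transporter of the plasma membrane, moves zinc out of the cell. Copper and cadmium, oxidants and glucocorticoids are also known to raise metallothionein transcripts. Prostate epithelium is known for its unusual zinc content.

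The cysteines can be read directly from the coding sequences, which show how alike these genes are. The coding sequences of MT2A, MT1F and MT1X, the 3 metallothioneins with more than 100 counts in each library, are shown with that of MT1G, the nearest relative of MT2A. Each is written 5′ to 3′ from the start codon to the stop codon on the GENCODE 29 models (GRCh38), with cysteine codons in capitals.
MT2A: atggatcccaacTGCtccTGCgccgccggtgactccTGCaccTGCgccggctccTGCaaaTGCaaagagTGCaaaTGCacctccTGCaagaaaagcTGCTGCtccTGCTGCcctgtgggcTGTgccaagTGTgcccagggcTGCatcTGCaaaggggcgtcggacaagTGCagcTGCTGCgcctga
MT1F: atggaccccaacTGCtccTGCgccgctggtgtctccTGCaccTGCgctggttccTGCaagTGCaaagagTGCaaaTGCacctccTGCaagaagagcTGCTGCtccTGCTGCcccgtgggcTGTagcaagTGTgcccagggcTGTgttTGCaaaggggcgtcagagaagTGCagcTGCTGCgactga
MT1X: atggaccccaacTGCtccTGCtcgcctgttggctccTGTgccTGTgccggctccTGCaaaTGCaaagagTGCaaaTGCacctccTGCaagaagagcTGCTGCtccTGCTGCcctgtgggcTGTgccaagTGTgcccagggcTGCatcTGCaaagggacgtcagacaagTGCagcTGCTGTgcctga
MT1G: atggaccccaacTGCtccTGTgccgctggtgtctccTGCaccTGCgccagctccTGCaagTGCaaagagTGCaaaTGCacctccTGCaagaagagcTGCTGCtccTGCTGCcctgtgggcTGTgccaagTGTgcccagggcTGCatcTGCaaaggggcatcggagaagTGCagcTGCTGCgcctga
All 8 metallothionein members have 61 codons before the stop codon, of which 20 are cysteine codons, in 186 bases with the stop codon. Among the 28 pairs of members, identity of the coding bases ran from 88.7% to 95.2%, with a median of 91.9%. MT1G and MT2A form the most alike pair at 95.2%, and MT1F and MT1X stand at 88.7%. Over the whole transcripts the genes differ more, since the share of a gene's 50-base stretches that another family gene also holds was 3.02% for MT2A, 3.64% for MT1X and 1.22% for MT1F. It was highest for MT1G, at 16.5%, and MT1H, at 15.8%. The deposited counts were made from uniquely aligned, unambiguous reads, so reads in shared stretches would have been left out of the single genes, and the counts of the low members are the most uncertain in this respect.

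The vehicle library held 65207444 counts and the (R)-9b library 57653965. Levels are given as counts and as CPM (counts scaled to a common library size) after TMM scaling, and ratios are (R)-9b over vehicle on the log2 scale with an exact (Clopper-Pearson) 95% interval. With 1 library per condition there was no test and no spread between cultures, and the interval covers counting error only. A gene was called lower or higher where its whole interval lay beyond a 2-fold change, among the 23446 genes whose counts in the pair of libraries came to 10 or more. By this rule 3.44% of all genes tested were called lower and 4.2% higher. Mitochondrially encoded genes held 1.49% of counts in vehicle and 9.54% in (R)-9b, and the part of this difference in the metallothionein ratios was not tested beyond a scaling without those genes, which moved each ratio by 0.0005 on the log2 scale. Small counts were mostly even numbers, 72.2% of the genes with 1 to 20 counts in vehicle, a pattern that counting each mate of a pair separately would give, so the intervals were also computed on halved counts. The labels name the cell type as breast cancer, whereas the paper describes C4-2B as prostate cancer. All 8 prostate epithelial markers were detected, with a summed level of 5286 CPM in vehicle against 9374 CPM under (R)-9b and KLK3 at 146597 counts in vehicle. The 6 breast markers came to 1.37 CPM in vehicle and to 1.90 in (R)-9b, with SCGB2A2 and ANKRD30A at 0. The 5 immune markers summed to 0.285 and 0.584 CPM with PTPRC at 0, and the 5 stromal and endothelial markers to 19.6 and 39.5 CPM, mostly COL1A1 (16.7 and 35.5 CPM). These are bulk libraries, in which fewer cells with a transcript and less of it per cell cannot be told apart.

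MT2A, the most abundant metallothionein gene of these cells, had 26087 counts in vehicle and 6529 in (R)-9b. Its scaled level was 392 CPM against 116 CPM, a log2 ratio of -1.76 (95% interval -1.80 to -1.72), or 3.39-fold lower. MT2A ranked 333 among all genes by counts in vehicle and 1813 in (R)-9b. Its ratio lay low in the whole distribution, with 856 of the 23446 genes tested, or 3.65%, at or below it. MT2A lies on chromosome 16 of GRCh38 at chr16:56608199-56609497 on the plus strand, and its identifier is ENSG00000125148.

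MT1F (ENSG00000198417, chr16:56657694-56660698, plus strand), the second member by level per length, had 3606 counts in vehicle and 584 in (R)-9b. This was a change from 54.2 to 10.3 CPM and a log2 ratio of -2.39 (-2.52 to -2.26), the lowest of the 9 ratios, although the intervals of MT1G and MT1M reached lower. MT1F was thus 5.24-fold lower in (R)-9b. MT1X (ENSG00000187193, chr16:56682424-56684196, plus strand) had 2772 counts in vehicle and 1091 in (R)-9b, or 41.6 against 19.3 CPM. Its log2 ratio was -1.11 (-1.21 to -1.01), the smallest decrease among the 3 abundant metallothioneins, and its call rests on the end of the interval just past 2-fold. On halved counts the MT1X interval was -1.25 to -0.96 and the call was lost, while MT2A (-1.82 to -1.71) and MT1F (-2.57 to -2.21) stayed past 2-fold.

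MT1G, MT1H, MT1A and MT1M, the low members, had fewer than 80 counts in either library. MT1G (ENSG00000125144, chr16:56666731-56668065, minus strand) had 64 counts in vehicle and 12 in (R)-9b, a log2 ratio of -2.18 (-3.20 to -1.27), and was called lower. On halved counts its interval was -3.73 to -0.90 and that call was lost. MT1H (ENSG00000205358, chr16:56669814-56671129, plus strand) had 75 and 23 counts, with a log2 ratio of -1.47 (-2.21 to -0.78). Its interval lay below 0 but not wholly past 2-fold. The same held for MT1A (ENSG00000205362, chr16:56638666-56640087, plus strand), with 39 and 14 counts and a log2 ratio of -1.24 (-2.24 to -0.33), although on halved counts its interval reached 0.07. MT1M (ENSG00000205364, chr16:56632233-56633986, plus strand) had 9 and 2 counts, and its interval of -5.18 to 0.34 around a log2 ratio of -1.93 held no change as well as a large decrease. MT1E (ENSG00000169715, chr16:56625475-56627112, plus strand) had 1 count in vehicle and 0 in (R)-9b, both under the 3 counts that a count of 0 allows, so no ratio was given. MT1E was therefore not detectable at this depth in either library. Summed, MT1A, MT1E, MT1G, MT1H and MT1M gave 188 counts in vehicle and 51 in (R)-9b, a log2 ratio of -1.64 (-2.12 to -1.19).

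SLC30A1 (ENSG00000170385), the zinc exporter on chromosome 1 at chr1:211571568-211578742 on the minus strand, had 4121 counts in vehicle and 2999 in (R)-9b. Its level was 61.9 against 53.1 CPM, so it fell by 14.2%, and its log2 ratio was -0.22 (-0.29 to -0.15). The decrease was beyond counting error but far from 2-fold. MTF1 (ENSG00000188786), the metal-sensing factor at chr1:37809567-37859620 on the minus strand, had 3063 counts in vehicle and 2810 in (R)-9b. After scaling it was 8.18% higher, at 46.0 against 49.8 CPM, with a log2 ratio of 0.11 (0.04 to 0.19). The MTF1 ratio stayed between 0.05 and 0.15 under the alternatives that can move it. Its interval included 0 with scaling by total counts, with estimated transcript counts and with an added coefficient of variation of 0.1. With that added variation the SLC30A1 interval also included 0 (-0.63 to 0.18).

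**Figure D1:**
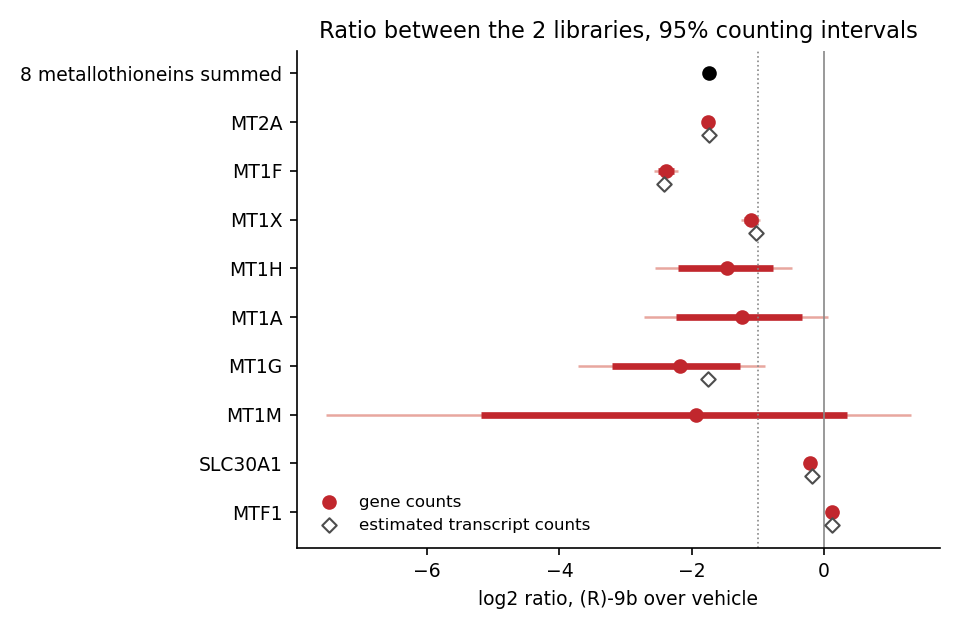
Log2 ratio of (R)-9b over vehicle for the 9 members tested, with the exact 95% interval from the deposited counts (thick) and from halved counts (thin), both covering counting error only. The black point is the sum of the 8 metallothioneins, diamonds are ratios of estimated transcript counts, and the dotted line marks a 2-fold decrease. The 7 metallothioneins lie between -2.39 and -1.11, whereas SLC30A1 and MTF1 lie at -0.22 and 0.11.

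Of the 10 members, 9 had enough counts to be compared. Among these, 4 were called lower (MT2A, MT1F, MT1X and MT1G) and 0 higher, beside 3.44% and 4.2% of all genes tested. On halved counts 2 of them, MT2A and MT1F, were called lower. The interval lay below 0 for 7 members, above 0 for 1 (MTF1) and included 0 for 1 (MT1M), where 31.1% of all genes tested had an interval below 0 and 29.8% had one above 0. The median log2 ratio was -1.47 over the 9 members and -1.76 over the 7 metallothioneins, beside -0.0049 over all genes tested. For the summed counts of the 8 metallothioneins, the log2 ratio was -1.75 (-1.78 to -1.71), from 490 to 146 CPM. The sum does not depend on how the counted reads were divided among these 8 genes, but it lacks any reads left out as shared.

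Per kilobase of exon, the order of the metallothionein levels in vehicle was MT2A (302 CPM per kb), MT1F (28.7), MT1X (23.5), MT1H (1.56), MT1A (1.48), MT1G (1.28), MT1M (0.143) and MT1E (0.0143). SLC30A1 at 11.3 CPM per kb and MTF1 at 5.73 CPM per kb stood between MT1X and MT1H. In (R)-9b MT2A still led with 89.0 CPM per kb, followed by MT1X at 10.9, SLC30A1 at 9.70, MTF1 at 6.20 and MT1F at 5.48. By gene counts, MT1F thus moved from above to below MT1X, SLC30A1 and MTF1. In the estimated transcript counts, given below, MT1X stood above MT1F in both libraries. The neighbours MT1H, MT1A and MT1G in vehicle rest on 75, 39 and 64 counts, and their order was not compared beyond that.

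**Figure D2:**
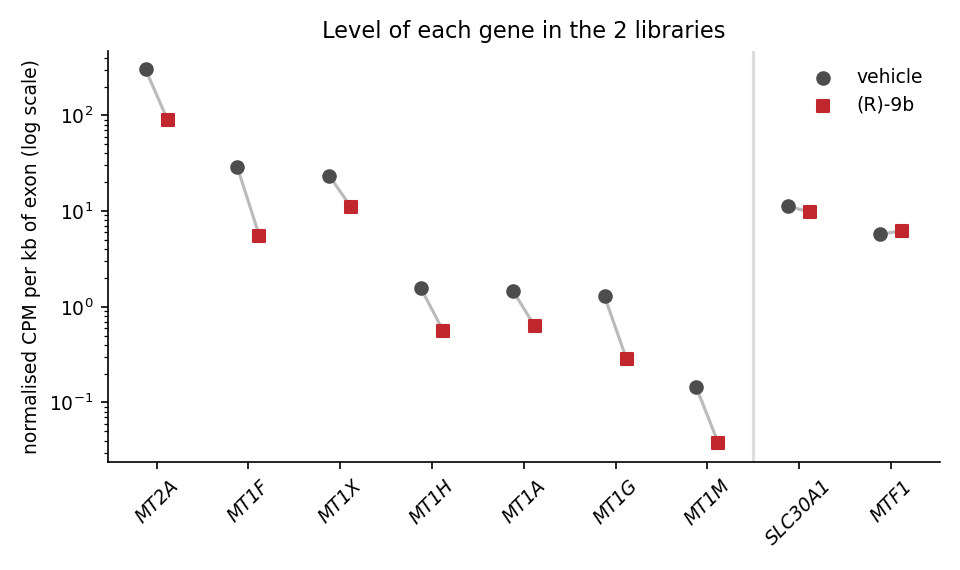
TMM-scaled level in CPM per kilobase of exon (log axis) of the 9 members tested in the vehicle library (circles) and the (R)-9b library (squares), with 1 library per condition, so that no point has a replicate error. MT2A drops from 302 to 89.0 CPM per kb and each metallothionein point lies lower in (R)-9b (for MT1M within counting error), while SLC30A1 goes from 11.3 to 9.70 and MTF1 from 5.73 to 6.20 CPM per kb.

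The abundant metallothioneins did not decrease by the same factor. Because the difference of 2 genes' ratios within the same pair of libraries does not depend on the scaling, these differences were computed directly. The log2 ratio of MT1F minus that of MT2A was -0.63 (-0.76 to -0.50), and minus that of MT1X it was -1.28 (-1.45 to -1.12). The log2 ratio of MT2A minus that of MT1X was -0.65 (-0.76 to -0.54). Each of these intervals also excluded 0 on halved counts. Shares of the metallothionein counts restate this difference from the same counts. MT1F gave 11.0% of metallothionein counts in vehicle (10.7% to 11.4%) and 7.07% in (R)-9b (6.53% to 7.65%). MT1X gave 8.49% (8.19% to 8.80%) and 13.2% (12.5% to 14.0%), so these genes changed places in the gene counts. MT2A held 79.9% (79.5% to 80.3%) in vehicle and 79.1% (78.2% to 80.0%) in (R)-9b, where the intervals overlapped. The exporter and the factor stood apart from all of these, with a difference of log2 ratios of -1.54 (-1.62 to -1.46) for MT2A minus SLC30A1 and of -0.89 (-1.01 to -0.76) for MT1X minus SLC30A1. For SLC30A1 minus MTF1 it was -0.33 (-0.44 to -0.23).

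The deposited transcript table gave the same direction for the abundant members. The estimated counts of MT2A summed to 10191 in vehicle and 2582 in (R)-9b, with a log2 ratio of -1.73 (-1.80 to -1.67). Those of MT1F gave -2.42 (-2.64 to -2.21), and those of MT1X gave -1.03 (-1.13 to -0.92), which is not wholly past 2-fold. The table treated these genes unequally, because in vehicle its estimates came to 94.0% of the gene counts for MT1X but to 39.1% for MT2A and 37.8% for MT1F. The median over the 8404 genes with at least 1000 vehicle counts was 36.1%. By these estimates MT1X (2604 in vehicle and 1075 in (R)-9b) stood above MT1F (1363 and 214) in both libraries. The change of places between MT1F and MT1X was therefore seen in the gene counts only. MT1H, MT1M and MT1E were listed at 0 in both libraries of that table, and MT1A had no transcript in it, although MT1H had 75 counts and MT1A 39 counts in the gene table.

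The rest of the family, found by symbol, comprised 12 further rows. Of these, 6 had enough counts and 2 were called lower, beside 3.44% of all genes tested. Both were processed copies outside the cluster, MT2P1 on chromosome 4 with 349 and 87 counts and a log2 ratio of -1.77 (-2.12 to -1.42), and MT1XP1 on chromosome 1 with 280 and 93 counts and a log2 ratio of -1.35 (-1.71 to -1.01). On halved counts MT2P1 stayed past 2-fold and the call of MT1XP1 was lost (-1.86 to -0.86). MT2P1 shares 50-base stretches with MT2A, and MT1XP1 with MT1X, MT1G and MT2A, so the division of counts between the copies and these genes is uncertain. In the estimated transcript counts MT2P1 and MT1XP1 stood at 0 in both libraries, so their calls rest on the gene counts only. MT1DP (41 and 12 counts, -1.53) and MT1L (43 and 16 counts, -1.19), pseudogenes within the cluster, had intervals below 0, but on halved counts that of MT1L reached 0.04. MT3, the metallothionein known from brain, had 19 and 2 counts and a log2 ratio of -3.01 (-6.16 to -0.96). The exception was MT1P1, with 3 and 10 counts and a log2 ratio of 1.97 (0.017 to 4.47), whose interval included 0 on halved counts. MT4, MT1B, MT1CP, MT1JP, MT1P3 and MT1HL1 had at most 2 counts in a library. Adding the 8 pseudogenes to the 8 members changed the summed log2 ratio from -1.75 to -1.74.

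Within the genome, 15 of the family genes lie in a cluster of 119 kb at chr16:56565049-56684196, and nearby protein-coding genes on either side were compared to see whether the decrease extended past it. On the MT4 side, NUDT21 (6424 and 3330 counts, log2 ratio -0.71), OGFOD1 (2101 and 1496 counts, -0.25) and BBS2 (3484 and 2121 counts, -0.48) were each lower. By point ratio each was lower by less than any metallothionein tested. The intervals of MT1A (-2.24 to -0.33) and MT1M (-5.18 to 0.34) nevertheless held the ratios of NUDT21 and BBS2. On the MT1X side, NUP93 (5407 and 4347 counts) had a log2 ratio of -0.08. HERPUD1, an endoplasmic reticulum stress gene further out, was called lower with 26626 and 5359 counts and a log2 ratio of -2.08 (-2.12 to -2.03). SLC12A3 with 3 and 3 counts and CETP with 1 and 0 counts were too low to compare. Among these 5 flanking genes compared, HERPUD1 was thus the gene with a ratio in the range of the metallothioneins.

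**Figure D3:**
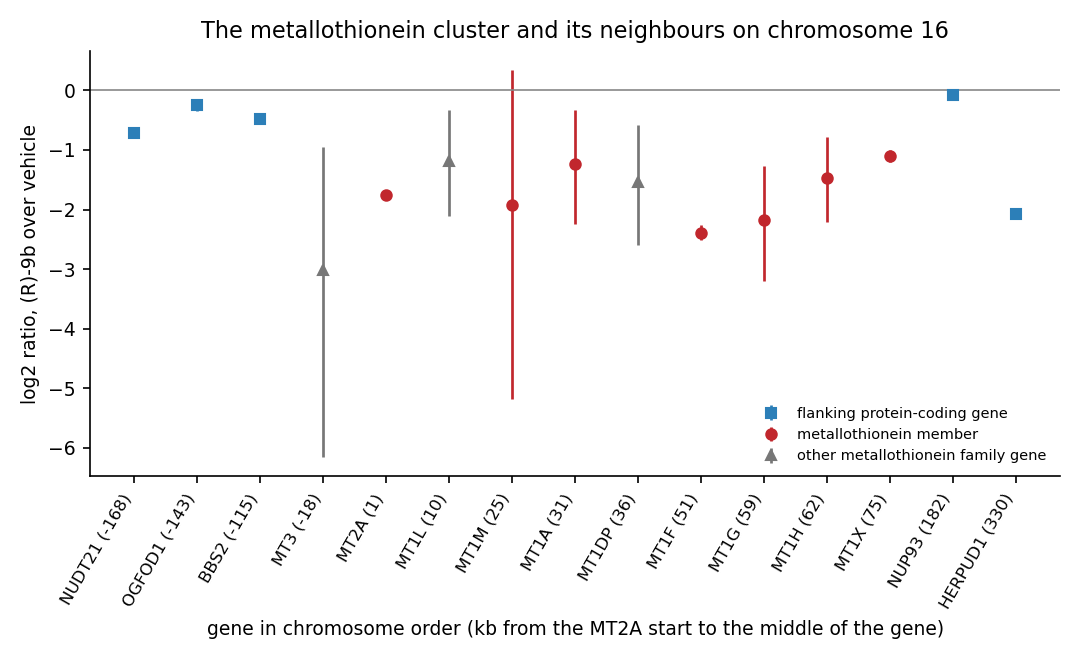
Log2 ratio of (R)-9b over vehicle with its exact 95% interval for genes with enough counts in and around the metallothionein cluster, in chromosome order with the distance from the start of MT2A. The cluster genes lie between -3.01 and -1.11, the 3 genes on the left and NUP93 on the right between -0.71 and -0.08, and HERPUD1 at -2.08.

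The promoters of the members were searched for the core of the metal response element, the sequence that MTF1 binds. The core was taken as TGCGCNC or TGCACNC on either strand. These patterns differ at a fixed base, so no match of one is also a match of the other on the same strand. RefSeq promoters (GRCh38.p14) were at hand for 5 of the 10 members, MT2A, MT1H, MT1X, SLC30A1 and MTF1, and the 250 bases before the RefSeq start were used. RefSeq starts differ from the GENCODE gene starts for some of these genes. The MT2A window lies inside the GENCODE gene, which starts at base 56608199. The SLC30A1 window ends at base 211579162, whereas its GENCODE gene on the minus strand starts at base 211578742. Positions of matches hold for the RefSeq starts only. The windows of the 3 metallothioneins and of SLC30A1 are printed 5′ to 3′ on the strand of the gene to show where the cores fall, with matches in capitals. They are chr16:56608334-56608583 (plus) for MT2A, chr16:56682220-56682469 (plus) for MT1X, chr16:56669564-56669813 (plus) for MT1H and chr1:211579162-211579411 (minus) for SLC30A1.
MT2A: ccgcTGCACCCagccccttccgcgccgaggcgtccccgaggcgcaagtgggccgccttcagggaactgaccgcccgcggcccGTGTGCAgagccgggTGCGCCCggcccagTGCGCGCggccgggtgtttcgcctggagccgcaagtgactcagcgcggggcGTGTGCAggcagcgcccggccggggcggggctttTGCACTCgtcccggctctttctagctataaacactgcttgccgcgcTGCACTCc
MT1X: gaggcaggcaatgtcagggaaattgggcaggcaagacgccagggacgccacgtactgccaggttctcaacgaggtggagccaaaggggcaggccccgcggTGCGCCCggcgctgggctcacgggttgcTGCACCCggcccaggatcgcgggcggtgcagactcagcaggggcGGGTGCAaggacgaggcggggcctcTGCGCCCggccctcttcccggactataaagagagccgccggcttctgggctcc
MT1H: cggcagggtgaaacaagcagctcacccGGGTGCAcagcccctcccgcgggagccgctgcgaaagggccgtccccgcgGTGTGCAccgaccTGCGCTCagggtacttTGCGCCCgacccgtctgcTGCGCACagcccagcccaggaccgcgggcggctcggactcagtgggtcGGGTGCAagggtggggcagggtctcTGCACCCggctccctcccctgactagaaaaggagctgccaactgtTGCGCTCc
SLC30A1: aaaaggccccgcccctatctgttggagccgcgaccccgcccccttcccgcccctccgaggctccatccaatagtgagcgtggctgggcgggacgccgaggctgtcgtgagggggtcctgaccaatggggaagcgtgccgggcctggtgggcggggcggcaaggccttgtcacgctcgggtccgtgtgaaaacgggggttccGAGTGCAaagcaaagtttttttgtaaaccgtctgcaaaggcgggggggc
MT2A holds 7 matches, MT1H 8, MT1X 4, SLC30A1 1 and MTF1 0. Of 35116 RefSeq promoter windows of the same length, 24.8% held at least 1 match, 1.05% at least 3 and 0.208%, or 73 windows, at least 4. Windows with at least 6 matches, as in MT2A and MT1H, made up 0.0342%, or 12 windows. A match of the letters TATAA begins at base -29 in MT2A and at base -30 in MT1X, counted from the start of transcription. In all 3 metallothionein windows a match lies at nearly the same place, from base -54 to -48 in MT2A and from base -53 to -47 in MT1X and MT1H. The match of SLC30A1 lies close to it, from base -49 to -43, on the other strand. MT1B and MT4, which had at most 2 counts in a library, hold 3 matches each, and MT1B also has a match from base -53 to -47. The matches are descriptions of the letters and not of binding. Beside the matches, the log2 ratios were -1.47 (-2.21 to -0.78) for MT1H, -1.76 for MT2A, -1.11 for MT1X, -0.22 for SLC30A1 and 0.11 for MTF1, and the MT1H interval held the ratios of both MT2A and MT1X.

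**Figure D4:**
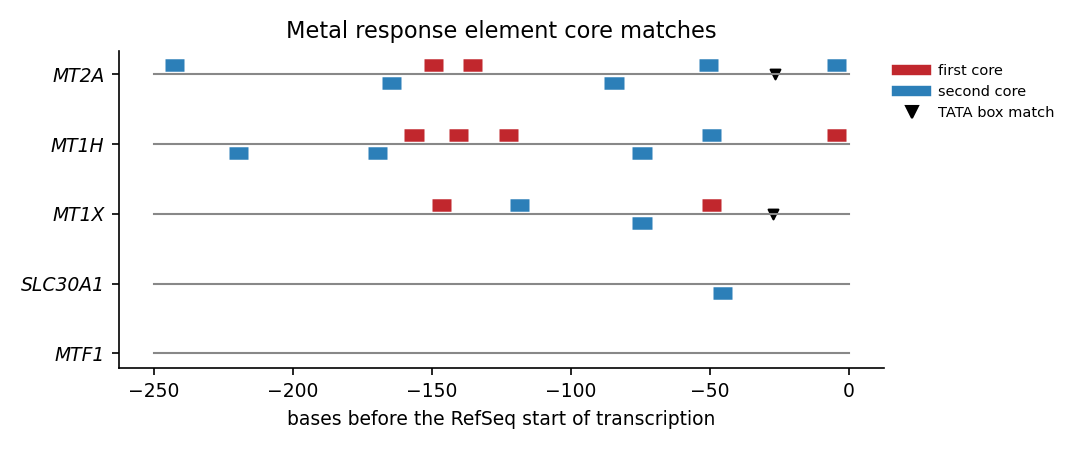
Position of metal response element core matches in the 250 bases before the RefSeq start of 5 members, with matches on the strand of the gene above the line and those on the other strand below it, and the TATA box match as a triangle. MT2A and MT1H carry 7 and 8 matches, MT1X 4, SLC30A1 1 and MTF1 0.

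The other genes of zinc traffic were taken as lists. The calls in these lists and those below stand beside 3.44% of all genes tested called lower and 4.2% higher. Intervals below 0 were found for 31.1% of all genes tested and above 0 for 29.8%. Of the 13 zinc importers (SLC39A family) with enough counts, 0 were called in either direction, 6 had an interval above 0 and 4 below, and the median log2 ratio was 0.14. The most abundant importer in vehicle, SLC39A14, which also carries manganese and iron, had 20311 counts in vehicle and 10025 in (R)-9b and a log2 ratio of -0.78 (-0.82 to -0.75). SLC39A8, its close relative, went the other way, with 10165 and 15378 counts and a log2 ratio of 0.84 (0.80 to 0.87). SLC39A10, a gene that MTF1 is known to repress, had 1595 and 1875 counts and a log2 ratio of 0.47 (0.37 to 0.57). Of the 9 zinc exporters other than SLC30A1 with enough counts, 1 was called lower and the median was -0.06. That gene was SLC30A10, which exports manganese, with 118 counts in vehicle and 16 in (R)-9b and a log2 ratio of -2.64 (-3.50 to -1.89). The most abundant, SLC30A4, had 15416 and 12502 counts and a log2 ratio of -0.06.

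Of the other genes linked to MTF1, 4 of 5 could be compared and 0 were called. PGF, a growth factor gene, had 73 and 24 counts and a log2 ratio of -1.37 (-2.10 to -0.68), and GCLC, for an enzyme of glutathione synthesis, had 1625 and 984 counts and a log2 ratio of -0.49 (-0.60 to -0.37). SELENOH had 1782 and 1579 counts and a log2 ratio of 0.06 (-0.04 to 0.16), and HAMP had 0 counts. PGF and GCLC thus had intervals below 0, and that of SELENOH included 0. The remaining gene compared, SLC39A10, had its interval above 0. The list's median was -0.21, and a part of MTF1 in these values was not tested.

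Copper binds metallothioneins as well. Among 17 copper-handling genes, 2 were called higher and 0 lower, with a median of 0.16. CP, for the copper-carrying ferroxidase ceruloplasmin, had 8 counts in vehicle and 338 in (R)-9b and a log2 ratio of 5.64 (4.64 to 6.86). STEAP4, a metalloreductase gene, had 18 and 153 counts and a log2 ratio of 3.33 (2.62 to 4.12). SLC31A1, the copper importer, had 16932 and 7544 counts and a log2 ratio of -0.93 (-0.97 to -0.89), short of 2-fold. The most abundant gene of the list, STEAP2, had 30538 and 24620 counts and a log2 ratio of -0.07.

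Among 24 iron-handling genes compared, 1 was called higher and 2 lower, with a median of -0.03. TFRC, the transferrin receptor, was higher with 11978 and 22132 counts and a log2 ratio of 1.12 (1.09 to 1.16). HMOX1, the heme-degrading enzyme, was lower with 7897 and 2110 counts and a log2 ratio of -1.67 (-1.74 to -1.60), and ISCU, the iron-sulfur cluster scaffold, with 7982 and 3195 counts and a log2 ratio of -1.08 (-1.14 to -1.02). The call of ISCU was lost on halved counts, where its interval ended at -0.999. FTH1, the ferritin heavy chain and the most abundant of the list, had 114434 and 92654 counts and a log2 ratio of -0.07.

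The list of metal and oxidant stress genes lay nearest to the metallothioneins, with 4 of 10 called lower, 0 higher and a median log2 ratio of -0.83. Besides HMOX1, these were SLC7A11, the cystine importer, with 11132 and 2966 counts and a log2 ratio of -1.67 (-1.73 to -1.61), and the heat shock genes DNAJB1 (13022 and 4973 counts, -1.15) and HSPA1A (4936 and 1926 counts, -1.12). HSPA1A has a nearly identical copy, HSPA1B, so that its counts are uncertain. NQO1, with a log2 ratio of 0.82 (0.76 to 0.87), was 1 of 2 genes of the list with an interval above 0, against 8 below. TXNRD1, the most abundant of the list, had 25984 and 16023 counts and a log2 ratio of -0.46. Of 8 glucocorticoid-responsive genes, 1 was called higher and 0 lower. It was FKBP5, with 9847 and 22544 counts and a log2 ratio of 1.43, a gene that androgens are also known to raise. TSC22D3, the most abundant of that list in vehicle, had 15520 and 7914 counts and a log2 ratio of -0.73, and the list's median was 0.10.

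Over all 7 lists, 83 of 88 distinct genes could be compared. Of these 6, or 7.23%, were called lower and 4, or 4.82%, higher, beside 3.44% and 4.2% of all genes tested, and their median log2 ratio was 0.06. The metallothioneins, with 4 of 7 called lower and a median of -1.76, lay below the median of each list, and these counts were read without a test.

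**Figure D5:**
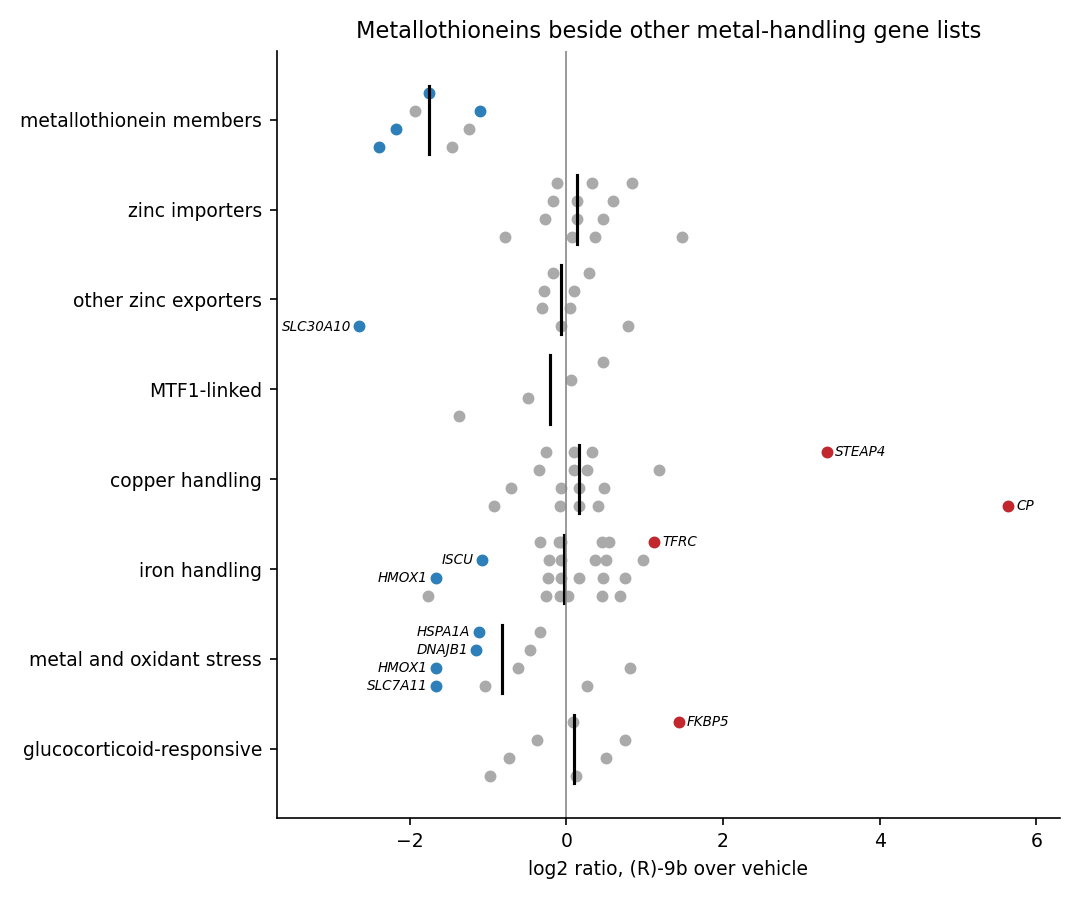
Log2 ratio of (R)-9b over vehicle for each gene compared, by list, with genes called higher or lower past 2-fold in red or blue, others in grey, and the median of each list as a black bar. The metallothionein median is -1.76, that of metal and oxidant stress genes -0.83, and those of the other lists lie between -0.21 and 0.16.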

How the data were processed

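RNA sequencing of C4-2B cells (1 library per condition) was analysed. According to the paper, the authors aligned paired-end reads of 150 bases to an Ensembl primary assembly with STAR and counted uniquely aligned, unambiguous reads per gene. The submitters' processing notes list hg38, STAR 2.5.1a, Subread, featureCounts 1.4.6-p5 and Salmon 0.8.2, and the paper names a later STAR version. The strand setting of the counting is not given in the sources used here. The authors deposited gene counts without normalization, the same genes as CPM and as moderated log2 CPM, and a transcript table with estimated counts. The log2 and CPM columns and the estimated counts deposited by the authors were used only as alternatives.

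Repeated gene lines (200) were dropped. Counts were scaled with TMM (edgeR 4.0.16, R 4.3.3), and exact 95% intervals were computed with scipy 1.17.1 under Python 3.11.15 (numpy 2.4.6, pandas 2.3.3) for genes whose counts in the pair of libraries came to 10 or more. The scripts were tested on simulated data. Ratios with at most 3 counts in both libraries were not given. The depth of each library makes intervals narrow for abundant genes, and they cover counting error only. Gene positions and coding sequences came from GENCODE 29 and promoters from RefSeq; protein sequences were not compared, and coding bases were compared in their place. The named genes are all members, all other family rows, the 4 nearest protein-coding genes on either side of the cluster and, per list, up to 4 genes called in each direction with the most abundant gene; SLC39A8, SLC39A10, SLC31A1, NQO1, HSPA1B and the MTF1-linked genes were named after their values were seen. Some genes that this rule covers are not reported here. The members and lists were chosen with earlier results of these data known. Alternatives were scaling by total counts, DESeq2 1.42.0 size factors, the upper quartile or TMM without mitochondrially encoded genes, the other deposited units, halved counts, an added coefficient of variation of 0.1, point ratios, minimum counts of 1 and 50, and pseudogenes added to the sum. Figures were drawn with matplotlib 3.10.9.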

Additional observations from a re-analysis of the deposited data

How the results depend on the processing

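No paired analysis was possible because each condition had 1 library. For the same reason no spread between cultures could be estimated, and depth limits MT1A, MT1E, MT1G, MT1H and MT1M. None of the 60 member ratios under the 7 alternatives that can move a ratio reversed, and most of these only rescale all genes alike. The 3 that moved beyond the counting interval were those of MT2A with total counts, CPM and moderated log2 CPM (each -1.82). MT1X kept a log2 ratio between -1.17 and -1.03, and lost its call with the upper quartile and with an added coefficient of variation of 0.1, where 3 members were called lower. The 4 members called lower became 7 with point ratios of CPM, moderated log2 CPM or scaled counts, and 2 with estimated transcript counts or halved counts. The 6 list genes called lower became 10 with CPM and moderated log2 CPM, 5 with halved counts and 3 with the added variation. Over all genes, the 807 called lower became 2424 with CPM, 2355 with moderated log2 CPM, 2235 with point ratios, 520 with transcripts, 535 with halved counts and 502 with the added variation. The 985 called higher became 2497, 2453, 2695, 513, 609 and 629 in the same order, and 638 with a minimum of 50 counts. The summed metallothionein ratio of -1.75 became -1.81 with total counts, CPM and moderated log2 CPM, -1.71 with the upper quartile and -1.62 with transcripts. The cause of these moves was not tested.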
